A study of Macaca fascicularis with 56 samples.

Results

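Whole blood of LR12-treated and vehicle-treated cynomolgus macaques (Macaca fascicularis) was compared 4 h into an endotoxin study, over all genes of a human genome array. Samples were chosen by their label of arm and hour, which gave 10 of the 56 arrays of the series: 6 labelled LR12 at T4 (animals Y31309 to Y31314) and 4 labelled Vehicle at T4 (animals Y31301 to Y31304), 1 array per animal. The series title describes an endotoxin challenge that was followed by LR12 or by a scrambled form of it. These 10 animals and 4 of a peptide control arm (Y31305 to Y31308) were each sampled at 0, 2, 4 and 8 h, with blood drawn into PAXgene tubes. The labels name no dose, age, sex or strain, and they do not say at which step of the protocol hour 0 was taken. They also do not say whether vehicle animals received endotoxin, so the peptide and the challenge cannot be told apart in this comparison from the labels alone.

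LR12 is a short peptide from TREML1, a receptor of platelets, and was designed as a decoy for the ligands of TREM-1. TREM-1 sits on neutrophils and monocytes, signals through the adaptor TYROBP, and amplifies the response that endotoxin starts at TLR4, CD14 and LY96. In blood, that response is known for an early burst of cytokines and chemokines, for induced brakes such as decoy receptors and SOCS proteins, for neutrophils arriving from the marrow, and for lymphocytes leaving the circulation.

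Levels are log2 MAS5 signals, on which a difference of 1 is a doubling, and they are compared between groups for 1 gene at a time. Vehicle values are always given in the order Y31301, Y31302, Y31303, Y31304. A gene is called higher or lower where the Benjamini-Hochberg adjusted p of limma was below 0.05, and differences carry limma's standard error. Genes of blood cells gave strong signals in both groups: hemoglobin beta (HBB) averaged 13.93 ± 0.17 (SD, n = 6) with LR12 and 14.11 ± 0.18 (SD, n = 4) with vehicle, and the pan-leukocyte gene PTPRC averaged 13.61 ± 0.08 and 13.48 ± 0.17.

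One vehicle animal stood apart from the others, and it touches most results that follow. At 4 h the array of Y31303 correlated across genes at a mean of 0.901 with the other vehicle arrays and at 0.927 with the LR12 arrays, whereas the other vehicle arrays correlated at 0.925 to 0.930 with their own arm and at 0.895 to 0.901 with LR12. At 0 h both values of Y31303 were 0.927, and at 2 h and 8 h it was again closer to LR12 (0.9247 against 0.9105, and 0.929 against 0.897). Of the LR12 arrays, that of Y31309 was closer to vehicle at 2 h (0.9268, against 0.9238 with its own arm) but not at 4 h. The peptide control arrays were not part of these correlations. In that arm Y31305 stood apart for OLFM4, a granule gene, with 5.09 at 4 h against 10.65 to 12.28 in the other 3 animals. The 5 array-level measures (array median, 20th percentile, spike-in level, and the 3′ to 5′ differences of GAPDH and ACTB) gave two-sided exact permutation p values from 0.3429 to 0.7905 between the 6 and 4 arrays (210 regroupings), each 0.7905 after adjustment over the 5.

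At 4 h, 699 of 16020 genes were higher with LR12 than with vehicle (4.36%) and 1211 were lower (7.56%). Of the higher genes 454 differed by over 2-fold and 147 by over 4-fold, and of the lower genes 922 and 140 did. All 6 LR12 values lay above all 4 vehicle values for 274 of the higher genes, and below them for 312 of the lower genes. These were counted only among called genes, from the values that gave the calls, so they are no separate support. The share over all genes is not given. An unadjusted p below 0.05 was reached by 4321 genes. The median difference over all genes was -0.06, and with each array centred on its own median the calls split into 854 higher and 852 lower. In blood, fewer cells of a type and less RNA per cell cannot be told apart, for any gene below.

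The array of Y31303 lay inside the range of the 6 LR12 arrays for 335 of the 699 higher genes (47.9%) and for 785 of the 1211 lower genes (64.8%). For each other vehicle animal that share was between 4.79% and 10.2%. Without Y31303 there were 1258 higher genes (7.85%) and 2460 lower genes (15.4%), among them 663 of the 699 and 1196 of the 1211. Without Y31301, Y31302 or Y31304, one at a time, the higher genes numbered 286 to 350 and the lower genes 402 to 547, and without any 1 LR12 animal 502 to 747 and 815 to 1674. Of the 138 called genes that the naming rule picked, 62 were called in each of the 10 fits that left out 1 animal. Leaving out Y31301, Y31302 or Y31304 ended 63, 51 and 68 of those 138 calls, leaving out Y31303 ended 1, and leaving out 1 LR12 animal ended 3 to 34. Below, a gene named as called at 4 h whose call was lost in any of these fits is given with the highest adjusted p it reached.

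**Figure D1:**
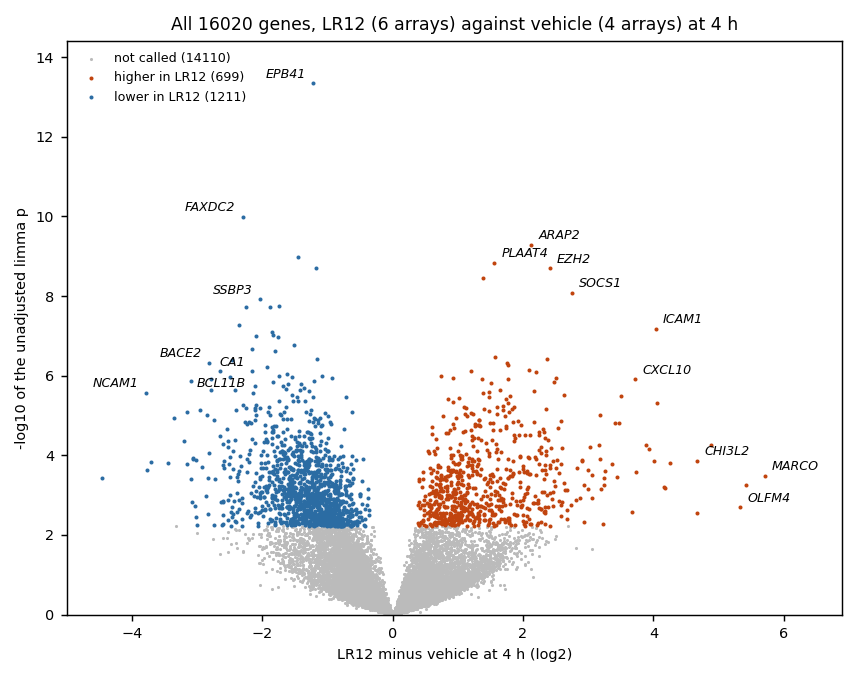
Difference between LR12 and vehicle at 4 h (x axis, log2) against -log10 of the unadjusted limma p (y axis) for each of 16020 genes; orange points are the 699 called higher, blue points the 1211 called lower, gray points the 14110 not called. MARCO and OLFM4 lie far right but low, with 1 vehicle animal at the LR12 level, while ICAM1, ARAP2 and EZH2 combine a large difference with a small p.

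Few genes were called between the arms at 0 h: 3 of the 16020 genes passed (0.0187%; 709 had an unadjusted p below 0.05), namely the antisense transcript DLGAP1-AS2 (3.58 in LR12 minus vehicle), the homeobox gene DLX6 (2.74) and FAM107B (-1.51). The change from 0 h to 4 h differed between the arms for 35 genes (0.218%), and for 1125 genes (7.02%) when the animal was entered as a replicate block. Without Y31301, Y31302, Y31303 or Y31304 the 35 became 2, 5, 1041 and 7, and without 1 LR12 animal 9 to 90. Of the 1125 genes of the blocked fit, 880 were among the 1910 called at 4 h, and 1906 of the 1910 had a change difference of the same sign as the 4 h difference. At least 50% of the 4 h difference was already there at 0 h for 46 of the 699 higher and 58 of the 1211 lower genes.

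The largest separated rise belonged to CHI3L2, a secreted chitinase-like protein of phagocytes. Its vehicle levels were 5.999, 5.27, 11.29 and 5.74 and its LR12 levels ran from 11.40 to 12.21 (median 11.67). Y31303, alone among vehicle animals, lay next to the LR12 range, and the difference was 4.67 ± 1.12 (SE, adjusted p = 0.00536), or 6.08 without that animal.

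ICAM1, the endothelial and leukocyte adhesion molecule bound by integrins, was 16.4-fold higher. Its vehicle levels were 5.03, 5.84, 7.89 and 6.41, against LR12 levels from 9.88 to 10.82 (median 10.33). Here Y31303 stayed about 2 log2 units below the lowest LR12 animal, and the difference of 4.04 ± 0.64 had an adjusted p of 7.06e-05. ICAM1 averaged 6.49 ± 0.36 (SD) with LR12 at 0 h 11.98 ± 0.52 at 2 h and 10.33 ± 0.34 at 4 h, against 7.16 ± 2.26 and 6.29 ± 1.21 with vehicle at 2 h and 4 h.

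CXCL10, an interferon-induced chemokine for T cells, followed another course. Vehicle levels at 4 h were 7.61, 4.53, 7.15 and 4.95 and LR12 levels ran from 8.13 to 11.32 (median 10.09), a difference of 3.72 ± 0.67 (adjusted p = 4.14e-04). With LR12 its mean went from 5.69 ± 0.41 at 0 h to 8.45 ± 0.90 at 2 h, 9.78 ± 1.18 at 4 h and 4.35 ± 0.48 at 8 h. At 4 h the vehicle mean was 6.06 ± 1.54, against 6.14 ± 1.33 at 0 h, and no vehicle animal reached the lowest LR12 value.

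The other 9 largest separated rises all had Y31303 as the highest vehicle animal, below every LR12 animal. INHBA, which encodes the subunit of activin A, had vehicle levels of 6.39, 7.36, 10.91 and 6.37 and LR12 levels from 11.02 to 12.43 (median 11.52). The transcription factor gene BATF had 7.05, 7.71, 10.86 and 6.89 against LR12 levels from 10.98 to 11.47 (median 11.36). Its relative BATF2 differed by 2.90 ± 0.70, complement factor B (CFB) by 3.42 ± 0.71, and ACOD1, the enzyme that makes itaconate in activated macrophages, by 3.24 ± 0.88. Neuromedin B (NMB), GPR85, MROH6 and the lipid-transfer gene STARD10 differed by 3.25, 2.67, 2.65 and 2.62. For ACOD1, 1.65 of the 3.24 stood at 0 h, and 1 of 3 probe sets of STARD10 had the other sign. With 1 animal left out, the calls of BATF2, ACOD1, NMB, GPR85 and MROH6 were lost (adjusted p up to 0.0529, 0.0827, 0.0743, 0.156 and 0.068).

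**Figure D2:**
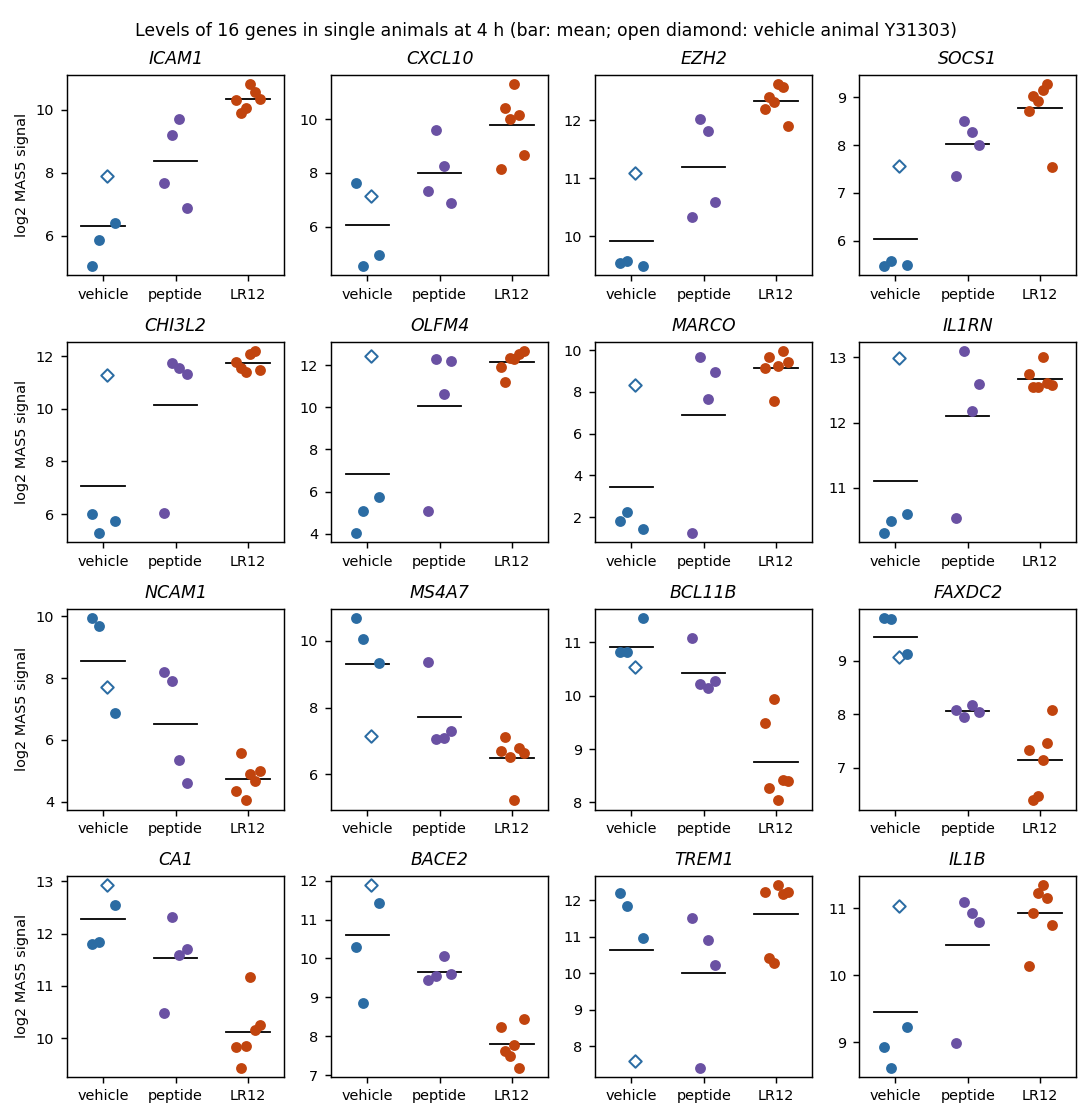
Log2 MAS5 signal (y axis) of 16 genes at 4 h in single animals of the vehicle (blue), peptide control (purple) and LR12 (orange) arms; the bar is the group mean and the open diamond is vehicle animal Y31303. For CHI3L2, OLFM4, MARCO and IL1RN the diamond sits with LR12 and 1 peptide control animal sits with vehicle, while for ICAM1, EZH2, BCL11B and FAXDC2 no vehicle value reaches the LR12 range.

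Among the largest falls was NCAM1, the adhesion molecule CD56, which marks natural killer (NK) cells in humans. Which cells carry it in these macaques was not tested. Its vehicle levels were 9.94, 9.67, 7.71 and 6.86 and its LR12 levels ran from 4.04 to 5.57 (median 4.78). The groups did not overlap, the difference was -3.79 ± 0.71 (adjusted p = 6.29e-04), and 1 of its 5 probe sets had the other sign. With LR12 the mean went from 8.18 ± 0.57 at 0 h to 4.99 ± 0.28 at 2 h and 4.75 ± 0.53 at 4 h, while vehicle stayed between 8.42 and 8.71.

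MS4A7, a membrane protein of monocytes, had vehicle levels of 10.69, 10.05, 7.14 and 9.35 and LR12 levels from 5.20 to 7.12 (median 6.66). Y31303 lay just above the highest LR12 animal, and the difference of -2.82 ± 0.66 became -3.54 without it. CDK5, a cyclin-dependent kinase, and PELI3, a ubiquitin ligase of the IRAK pathway, were -2.78 and -3.21 apart. FMNL2, a formin that assembles actin, differed by -2.84 ± 0.74, CHN1, which restrains the GTPase Rac, by -2.61 ± 0.77, and the growth factor gene NRG4 by -2.55 ± 0.55. Of FMNL2, 1 of 3 probe sets had the other sign. The CHN1 value of LR12 animal Y31312 (-1.14) lies below the 20th percentile of its array (1.43), which limits how well that difference can be measured. The calls of FMNL2 and CHN1 did not hold in each fit with 1 animal left out (adjusted p up to 0.0531 and 0.121).

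For 5 of the 12 largest falls, at least 50% of the difference stood at 0 h, where none of the 5 was called. BACE2, an aspartyl protease, had vehicle levels of 10.29, 8.85, 11.89 and 11.42 and LR12 levels from 7.19 to 8.44 (median 7.69), a difference of -2.82 ± 0.49 of which -1.78 was there at 0 h. PTGR1, a prostaglandin reductase, differed by -2.96 at 4 h and -2.60 at 0 h, PAQR9 by -3.16 and -2.39, the dynein chain DNAI2 by -3.09 and -2.10, and SOX6 by -3.09 and -1.63. In BACE2, PAQR9, PTGR1 and DNAI2, Y31303 was the highest of all 10 arrays, on the side away from LR12. None of the 5 had a called change difference, with adjusted p from 0.249 to 0.793 in the blocked fit. Of SOX6, 1 of 4 probe sets had the other sign. When single animals were left out, the call of SOX6 was lost (adjusted p up to 0.0527).

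**Figure D3:**
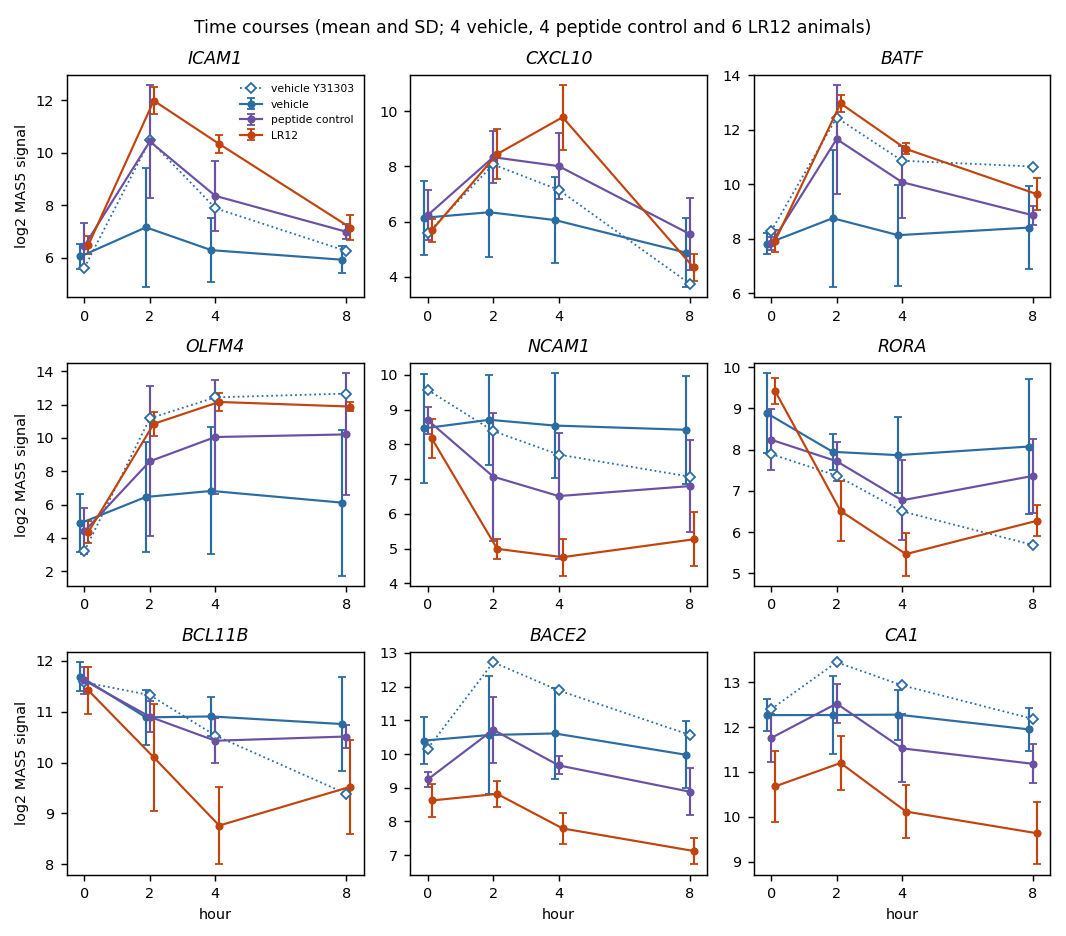
Mean log2 MAS5 signal with SD (y axis) over hours (x axis) for 9 genes in vehicle (blue, n = 4), peptide control (purple, n = 4) and LR12 (orange, n = 6); the dotted line with diamonds is vehicle animal Y31303. ICAM1 and BATF have their highest LR12 mean at 2 h and CXCL10 at 4 h, NCAM1 and RORA separate after 0 h, and BACE2 and CA1 are apart from 0 h on.

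TREM1 itself, the receptor whose ligands LR12 binds, was not called at 4 h. Vehicle levels were 12.20, 11.84, 7.60 and 10.96 and LR12 levels ran from 10.27 to 12.41 (median 12.20), a difference of 0.98 ± 0.94 (adjusted p = 0.544) that was 1.84 at 0 h and -0.04 at 4 h without Y31303. The level of Y31303 was also the lowest of its arm at 2 h and 8 h (7.86 and 8.03). The adaptor TYROBP differed by 0.20 ± 0.14 and TREML1, the parent gene of the peptide, by 0.12 ± 0.50, neither called. Of the 19 measured genes of the TREM-1 and adaptor list, 5 were higher and 1 lower, and the median was 0.23 (-0.06 over all genes).

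The called members of that list were mostly relatives and downstream genes. TREM2, a relative that also pairs with TYROBP, had vehicle levels of 5.20, 5.30, 6.70 and 4.76 and LR12 levels from 7.14 to 8.42 (median 7.73), and the difference was 2.24 ± 0.49 (adjusted p = 0.00237). TREML2, a receptor of myeloid and lymphoid cells, differed by 1.004 ± 0.32, the exchange factor VAV1 by 0.996 and the adaptor LAT2 by 0.73. NFATC1, a calcium-dependent transcription factor, differed by 1.23 at 4 h and 1.02 at 0 h, and 2 of its 5 probe sets had the other sign. TREML4 was lower (-3.03 ± 0.92), with -1.82 of it present at 0 h and 1 of 2 probe sets of the other sign. In the leave-one-out fits, TREML2, NFATC1, TREML4, VAV1 and LAT2 lost the calls (adjusted p up to 0.199, 0.0994, 0.124, 0.173 and 0.148).

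Several genes of the endotoxin recognition list were among the higher genes. Of 18 measured genes of the endotoxin recognition list 7 were higher and none lower, with a median of 0.72; with quantile normalization 2 were higher. The mean level over the list ran from 9.005 to 9.39 in LR12 animals and was 8.64, 8.64, 8.85 and 8.53 in vehicle animals. LY96, the co-receptor that binds endotoxin with TLR4, had vehicle levels of 9.24, 9.48, 10.40 and 10.85 and LR12 levels from 10.58 to 12.45 (median 11.94), with Y31304 inside that range. TLR4 had 11.44, 11.93, 10.60 and 10.55 against 12.14 to 12.29 (median 12.20), with the 6 LR12 animals within 0.2 log2 units of each other. It differed by 1.08 ± 0.33, was 0.64 at 0 h, and had an adjusted p of 0.0754 without Y31303, which here was one of the 2 low vehicle animals. CD14, IRAK2 and RIPK2 differed by 0.80, 1.92 and 1.31, and TLR5 and TLR1 by 0.75 and 0.69. LY96, TLR4, CD14, TLR5 and TLR1 were not called in each leave-one-out fit (adjusted p up to 0.179, 0.151, 0.271, 0.167 and 0.146).

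The list of NF-kB feedback and early response genes, which also holds FOS, JUN, EGR, NR4A and DUSP genes, showed 8 higher and 1 lower of 28 measured, median 0.51. RELB and NFKB2, partners of the alternative pathway, differed by 2.34 ± 0.52 and 1.94 ± 0.42. The inhibitors TNFAIP3 (A20), NFKBIA and TNIP1 differed by 1.83, 0.92 and 0.83, and for NFKBIA 0.66 was there at 0 h. ATF3, a stress-induced repressor, had vehicle levels of 9.14, 7.65, 9.58 and 8.25 and LR12 levels from 10.07 to 11.24 (median 10.83). FOS, an immediate early factor, was the exception: it was lower, with 9.42, 9.41, 8.01 and 9.95 against 7.29 to 7.87 (median 7.39), and all 6 LR12 animals lay below all 4 vehicle animals. With 1 animal left out, the calls of NFKBIA, ATF3, FOS, TNFAIP3 and TNIP1 were lost (adjusted p up to 0.113, 0.085, 0.181, 0.0507 and 0.152).

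None of the early cytokine genes TNF, IL6, CXCL8 and IL1B was called at 4 h. TNF had vehicle levels of 3.16, 4.53, 5.21 and 5.52 and LR12 levels from 4.38 to 6.01 (median 5.34), with an adjusted p of 0.402. IL6 had 4.62, 1.79, 1.91 and 1.67 against 0.28 to 3.78 (median 2.72) (adjusted p = 0.979) and CXCL8, the neutrophil chemokine, 5.12, 5.11, 6.49 and 5.21 against 5.76 to 6.45 (median 6.24) (adjusted p = 0.254). IL6 in Y31302, Y31303 and Y31304 lay near the 20th percentile of the arrays (vehicle mean 1.604), where a difference cannot be measured well. IL1B came closest, at 8.92, 8.62, 11.03 and 9.23 against 10.14 to 11.35 (median 11.04): the difference of 1.47 ± 0.53 had an adjusted p of 0.059, and of 9.52e-04 without Y31303, which lay inside the LR12 range. With LR12, mean IL1B was 12.36 ± 0.14 at 2 h, above its 4 h mean of 10.92 ± 0.44.

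Over the list of inflammatory cytokines 1 of 21 was higher and 1 lower, near the 4.36% higher and 7.56% lower over all genes. Oncostatin M (OSM), a cytokine of activated myeloid cells, had vehicle levels of 5.30, 5.49, 7.67 and 5.67 and LR12 levels from 7.35 to 8.06 (median 7.79), Y31303 being inside that range. IL15, which sustains NK and memory T cells, was lower, at 7.76, 6.80, 4.58 and 7.53 against 4.16 to 5.10 (median 4.72). Of 20 chemokines 2 were higher (CXCL10 and CCL2) and 2 lower, 10% each way, against the same shares over all genes. The monocyte chemokine CCL2 had vehicle levels of 0.73, 3.45, 6.53 and 3.88 and LR12 levels from 5.87 to 6.73 (median 6.48), a difference of 2.68 ± 0.74, or 3.64 without Y31303. The CCL2 value of Y31301 lies below the 20th percentile of its array (1.67), which limits how well that difference can be measured. CCL5 and XCL1, which are made by T and NK cells, differed by -1.30 ± 0.38 and -1.27 ± 0.43. The calls of IL15, CCL2, CCL5 and XCL1 did not hold in each fit with 1 animal left out (adjusted p up to 0.128, 0.171, 0.111 and 0.161).

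Of the anti-inflammatory genes 9 of 20 measured were higher and 1 lower, with a median of 0.62. SOCS1, a feedback inhibitor of cytokine receptors, had vehicle levels of 5.47, 5.58, 7.57 and 5.50 and LR12 levels from 7.54 to 9.29 (median 8.97), a difference of 2.75 ± 0.40 (adjusted p = 1.45e-05). Its lowest LR12 animal, Y31314, lay at the level of Y31303, and 1 of its 3 probe sets had the other sign. IL1RN, the secreted blocker of the interleukin-1 receptor, had 10.30, 10.49, 12.99 and 10.60 against 12.55 to 13.01 (median 12.59), so that Y31303 was among the highest of all 10 animals. IL1R2, the decoy interleukin-1 receptor, had 11.89, 12.19, 13.62 and 11.20 against 13.36 to 13.78 (median 13.58), with 0.76 of its difference of 1.33 at 0 h.

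HMOX1, which degrades heme, had vehicle levels of 7.63, 7.62, 12.42 and 8.57 and LR12 levels from 11.16 to 11.82 (median 11.72), with Y31303 above every LR12 animal. The prostaglandin E2 receptor PTGER2 had 4.76, 5.10, 6.88 and 5.62 against 7.59 to 8.62 (median 8.03) and did not overlap. CISH, IL4R, IRAK3 and IL13RA1 differed by 2.34, 1.42, 1.22 and 0.70. SIGIRR, a receptor that restrains interleukin-1 signals and is expressed by lymphocytes among others, was the 1 lower member (-1.42 ± 0.42). When single animals were left out, the calls of IL1RN, IL1R2, HMOX1, SIGIRR, CISH, IL4R and IL13RA1 were lost (adjusted p up to 0.168, 0.135, 0.134, 0.111, 0.06, 0.148 and 0.122).

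Interferon-stimulated genes were higher in 6 of 36 measured and lower in none, with a median of 0.76. IRF7, the transcription factor that drives type I interferon, had vehicle levels of 6.98, 6.45, 6.89 and 5.93 and LR12 levels from 7.68 to 8.98 (median 8.27), and the groups did not overlap. LAMP3, the RNA sensor IFIH1, IFI35 and GBP2 differed by 2.09, 1.36, 1.31 and 1.30. The mean over the list ran from 7.95 to 9.40 in LR12 animals, and was 8.32, 7.21, 8.62 and 7.82 in vehicle animals, of which 2 lay inside that range. In the leave-one-out fits, LAMP3, IFIH1 and GBP2 lost the calls (adjusted p up to 0.139, 0.0574 and 0.137).

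Neutrophil granule genes had the highest median of the 32 lists, 1.12, with 7 of 21 higher and none lower. These genes are normally transcribed in marrow precursors. OLFM4, of the specific granule, had vehicle levels of 4.02, 5.08, 12.43 and 5.74 and LR12 levels from 11.20 to 12.67 (median 12.32). Lactoferrin (LTF) had 6.64, 8.49, 13.40 and 7.09 against 12.58 to 13.45 (median 13.11), and CRISP3 5.50, 6.63, 12.19 and 4.21 against 10.84 to 12.34 (median 11.88). In all 3, Y31303 lay inside the LR12 range and the other vehicle animals lay far below it.

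The differences were 5.34 ± 1.63, 4.18 ± 1.15 and 4.67 ± 1.48, or 7.20, 5.68 and 6.36 without Y31303. Haptoglobin (HP), the collagenase MMP8, the chitinase CHIT1 and lipocalin LCN2 differed by 3.20, 2.67, 2.22 and 1.47. The mean over the list went up from 0 h to 4 h in 6 of 6 LR12 animals and in 2 of 4 vehicle animals, and at 4 h it was 5.87, 6.28, 7.99 and 6.32 in vehicle against 7.87 to 8.56 with LR12. Without Y31303, 11 of 21 were higher, against 7.85% of all genes. OLFM4, CRISP3, LTF, MMP8, HP, CHIT1 and LCN2 were not called in each leave-one-out fit (adjusted p up to 0.145, 0.175, 0.0919, 0.197, 0.0535, 0.176 and 0.194).

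Of the mature neutrophil markers CMTM2 was the 1 called member of 19 (2.58 ± 0.84), and the median was 0.39. With centring or quantile normalization 3 were higher, and with the animal as replicate block 5 were higher and 1 lower. With 1 animal left out, the call of CMTM2 was lost (adjusted p up to 0.184). S100A12, a calgranulin, had vehicle levels of 8.20, 8.41, 11.21 and 8.65 and LR12 levels from 9.93 to 11.45 (median 10.70), with an adjusted p of 0.0973, or 6.78e-04 without Y31303. Without Y31303, 6 of the 19 were higher and 1 lower, against 7.85% higher and 15.4% lower over all genes. With the replicate block 4.94% of all genes were higher and 9.01% lower.

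Of 22 measured genes of the phagocyte receptor list 4 were higher and none lower. MARCO, a scavenger receptor that binds bacteria, had vehicle levels of 1.81, 2.25, 8.33 and 1.43 and LR12 levels from 7.56 to 9.97 (median 9.34). FCGR1A, the high-affinity immunoglobulin receptor, had 4.93, 4.18, 11.30 and 6.37 against 10.82 to 12.02 (median 11.72). The low vehicle values of MARCO lie near the 20th percentile of their arrays (vehicle mean 1.604). For both genes, 3 vehicle animals lay over 4 log2 units below the lowest LR12 animal and Y31303 lay inside the LR12 range. The differences were 5.71 ± 1.47 and 4.88 ± 1.10, or 7.33 and 6.42 without Y31303. With LR12, mean MARCO went from 1.41 ± 0.37 at 0 h to 5.65 ± 1.004, 9.17 ± 0.84 and 10.70 ± 0.80 at 2, 4 and 8 h. The lectin CLEC4E and the scavenger receptor SCARF1 differed by 1.03 and 0.74, of which 0.66 and 0.63 stood at 0 h. The calls of MARCO, CLEC4E and SCARF1 did not hold in each fit with 1 animal left out (adjusted p up to 0.0643, 0.101 and 0.109).

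T cell markers were the list with the lowest median: -1.43 over 22 measured genes, of which 13 were lower, none higher and 22 of 22 negative. LCK, the kinase of the T cell receptor, had vehicle levels of 9.77, 9.91, 7.96 and 9.48 and LR12 levels from 6.30 to 8.76 (median 7.37). BCL11B, a transcription factor that keeps T cell identity, had 10.83, 10.82, 10.53 and 11.46 against 8.04 to 9.95 (median 8.42), with no overlap, Y31303 as the lowest vehicle animal and 1 of 3 probe sets of the other sign. CD4 had 8.17, 7.03, 5.18 and 7.12 against 3.77 to 6.30 (median 4.82).

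The differences of those 3 genes were -1.97 ± 0.54, -2.15 ± 0.41 and -1.96 ± 0.41, and at 0 h they were 0.48, -0.27 and -0.15. The other called members included the receptor chains CD3D (-1.06), CD3G (-1.55) and CD247 (-1.88), CD8A (-1.29) and the costimulatory receptor CD28 (-1.86). The list's median was 0.16 at 0 h and its change difference -1.73, with 12 members called for the change in the blocked fit. Its mean level fell in 6 of 6 LR12 animals and 3 of 4 vehicle animals, to 5.91 to 7.27 with LR12 and to 8.22, 8.07, 7.22 and 8.26 with vehicle. Y31309 was the highest LR12 animal and overlapped Y31303. Without Y31303, 20 of 22 were lower, against 15.4% of all genes. When single animals were left out, the calls of LCK, CD3D, CD247 and CD8A were lost (adjusted p up to 0.0674, 0.105, 0.153 and 0.102).

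**Figure D4:**
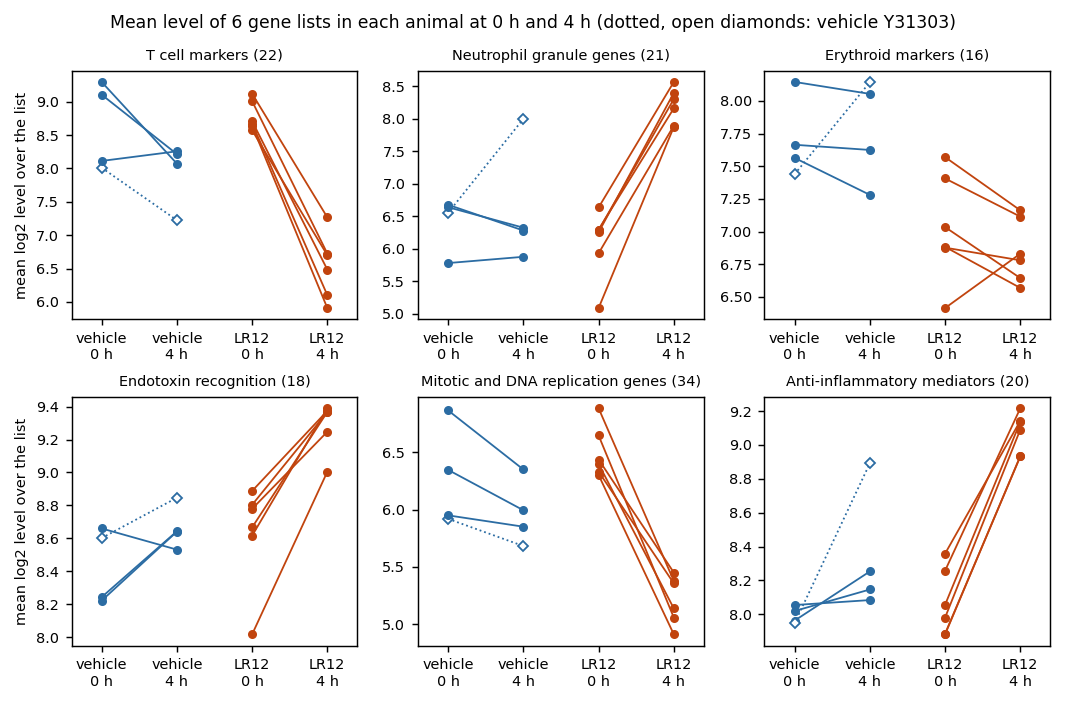
Mean log2 level over 6 gene lists (y axis) in each vehicle (blue) and LR12 (orange) animal at 0 h and 4 h, lines joining the 2 arrays of an animal; dotted lines with open diamonds are vehicle Y31303. T cell markers fell in all 6 LR12 animals and in 3 vehicle animals, Y31303 among them. Neutrophil granule genes went up in all 6 LR12 animals and in 2 vehicle animals, Y31303 among them. Erythroid markers were already lower with LR12 at 0 h.

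B cells and NK cells gave fewer calls in the same direction. Of 20 B cell markers 3 were lower: CD79A, part of the B cell receptor, at 10.30, 10.56, 8.87 and 9.94 against 7.58 to 10.54 (median 8.07), with EBF1 (-1.69) and IGHM (-1.47), and with centring or quantile normalization 1 was. Of 23 NK and cytotoxic markers 4 were lower, namely perforin (PRF1, -1.36), IL2RB (-1.59), CTSW (-1.62) and FASLG (-1.67). NKG7, a granule protein usually assigned to NK cells, went the other way, with vehicle levels of 8.23, 7.58, 12.04 and 7.43 and LR12 levels from 10.68 to 11.92 (median 11.50). The medians of the lists were -0.78 and -0.73, and without Y31303 there were 7 B cell and 11 NK markers lower. Over all genes 7.56% were lower, and 15.4% without Y31303. In the leave-one-out fits, CD79A, EBF1, IGHM, FASLG, NKG7 and PRF1 lost the calls (adjusted p up to 0.161, 0.171, 0.117, 0.0758, 0.123 and 0.11).

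Antigen presentation had a low median but few calls (11.76% lower, against 7.56% over all genes). Of 17 genes of MHC class II presentation 16 were negative and 2 called lower, with a median of -1.03: HLA-DOB had vehicle levels of 8.43, 8.61, 5.64 and 8.43 and LR12 levels from 4.97 to 7.47 (median 5.96), and the protease LGMN differed by -1.03. In this list Y31309 stood out, with a mean of 9.41 against 8.13 to 8.45 in the other LR12 animals, and so did Y31303, with 8.64 against 9.49 to 9.60. Without Y31303, 9 of the 17 were lower, and with the replicate block 5. Over all genes, 15.4% were lower without Y31303 and 9.01% with the block. Dendritic cell markers gave CD1C, CADM1 and PLD4 lower (-1.38, -1.68 and -2.06) and BATF3 higher (2.35), with 1 of 6 probe sets of CADM1 of the other sign, and with centring or quantile normalization 1 was lower in place of 3. HLA-DOB, LGMN, CD1C, CADM1 and PLD4 were not called in each leave-one-out fit (adjusted p up to 0.111, 0.255, 0.171, 0.0532 and 0.238).

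Monocyte markers split. CD14 had vehicle levels of 11.91, 11.93, 12.33 and 10.95 and LR12 levels from 11.94 to 12.88 (median 12.69), and MS4A6A differed by 1.11 ± 0.33. Besides MS4A7, the fractalkine receptor CX3CR1 and the costimulatory ligand CD86 were lower (-1.75 ± 0.54 and -2.21 ± 0.52). CSF1R, the receptor for the growth factor of monocytes, had 10.69, 9.96, 6.93 and 10.36 against 7.56 to 8.51 (median 8.15): 3 vehicle animals lay above all LR12 animals and Y31303 below them. Its adjusted p was 0.126, and 1.84e-04 without Y31303. With 1 animal left out, the calls of CD14, MS4A6A and CX3CR1 were lost (adjusted p up to 0.271, 0.147 and 0.154).

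Of the adhesion and migration list, 28 genes were measured and 2 were higher (ICAM1 and MMP8) and 3 lower (ITGA4, PECAM1 and CX3CR1), with 4 higher in the blocked fit. Over all genes 4.36% were higher and 7.56% lower, and 4.94% were higher in the blocked fit. ITGA4, the integrin chain that binds VCAM1, had vehicle levels of 9.29, 8.44, 6.18 and 9.57 and LR12 levels from 4.79 to 6.43 (median 5.54), a difference of -2.79 ± 0.52 with -1.17 of it at 0 h. PECAM1, a junction molecule of leukocytes and platelets, had 10.64, 11.32, 8.70 and 10.44 against 7.82 to 8.85 (median 8.06) and differed by -2.12 ± 0.42, with -1.14 at 0 h and 1 of 5 probe sets of the other sign. Y31303 lay inside the LR12 range in both.

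Erythroid genes were lower with LR12 at 4 h, and the list was already lower at 0 h. Of 16 measured, 7 were lower and none higher, and the median was -1.05 at 4 h and -0.67 at 0 h. CA1, the red cell carbonic anhydrase, had vehicle levels of 11.80, 11.83, 12.93 and 12.54 and LR12 levels from 9.44 to 11.18 (median 10.01), a difference of -2.16 ± 0.38 of which -1.59 was there at 0 h. SELENBP1 differed by -2.13 at 4 h and -1.94 at 0 h, and the hemoglobin chaperone AHSP by -1.68 and -0.99. The call of SELENBP1 did not hold in each fit with 1 animal left out (adjusted p up to 0.0782).

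For all 7 called erythroid genes of the list (BPGM, HEMGN, ALAS2 and FECH are the others) at least 50% of the difference stood at 0 h. None of them was called for the change, in either fit. Outside the list, EPB41 and the heme synthesis gene PPOX differed by -1.22 and -1.62 at 4 h but by -0.08 and -0.06 at 0 h. Their change was called in the blocked fit. SLC25A39, also outside the list, differed by -2.46 and -1.28. These 3 were picked after their values were seen. No erythroid gene was called at 0 h, and the number of calls there was 3 over all genes. The level of spike-in controls divides the arrays into a low and a high set, and within the low set 0 of the 16 were called (list median relative to all genes -0.47), within the high set 5 lower (-1.65). When single animals were left out, the calls of HEMGN, ALAS2 and FECH were lost (adjusted p up to 0.0617, 0.068 and 0.0867). Platelet markers had no called member of 17, and a median of -0.43 at 4 h after 0.36 at 0 h.

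**Figure D5:**
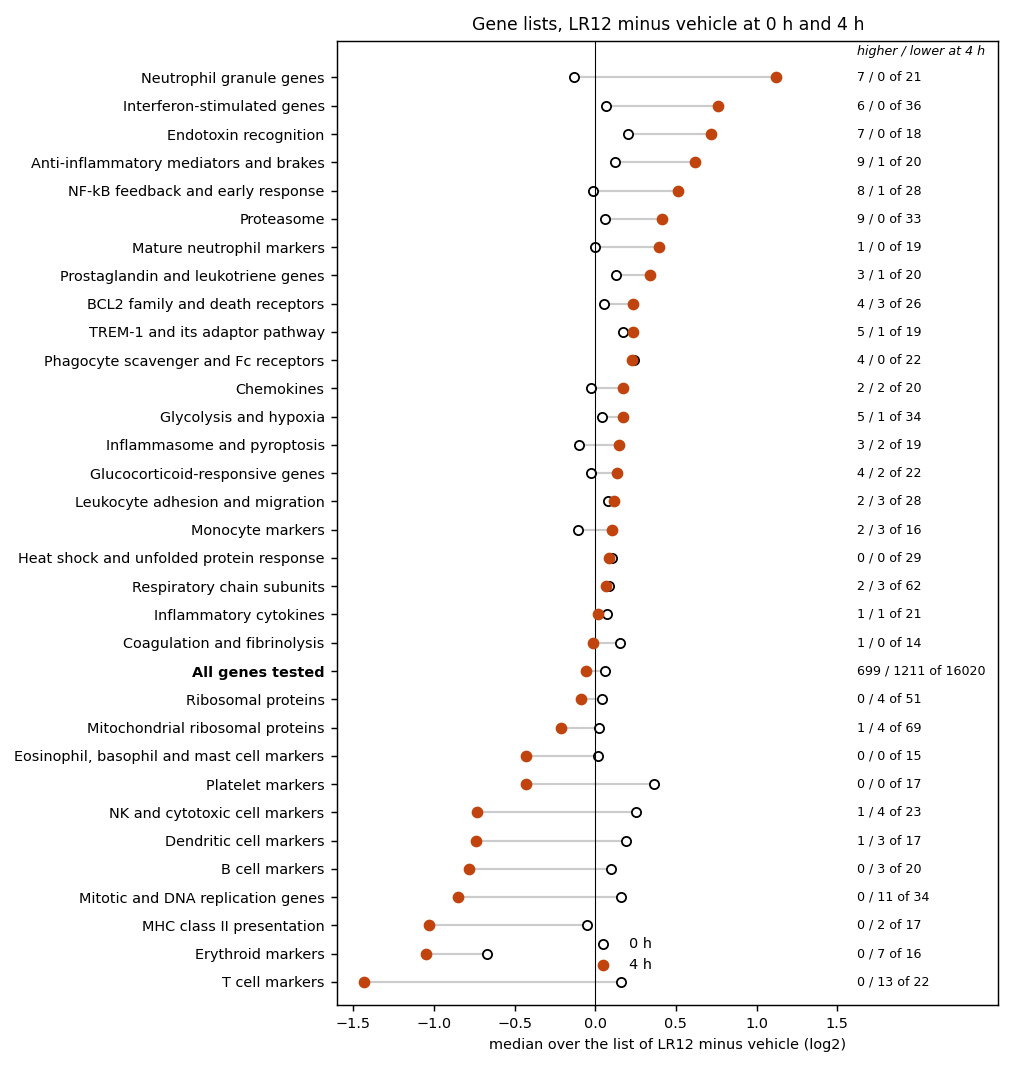
Median difference between LR12 and vehicle (x axis, log2) over each of 32 gene lists and over all 16020 genes (bold) at 0 h (open) and 4 h (filled), with the number of genes called higher and lower at 4 h and the number measured on the right. Most lists lie near 0 at 0 h and spread to between -1.43 and 1.12 at 4 h, and erythroid markers are the list farthest from 0 at 0 h.

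Cell division genes were lower: 11 of 34 mitotic and replication genes, none higher, median -0.85 at 4 h and 0.16 at 0 h. TOP2A, which untangles replicated DNA, had vehicle levels of 7.85, 8.45, 6.24 and 7.05 and LR12 levels from 4.80 to 6.54 (median 5.86). RRM1, of the enzyme that makes deoxynucleotides, had 8.90, 8.84, 6.61 and 8.96 against 5.42 to 6.95 (median 6.45), and the spindle gene ASPM 4.95, 4.46, 4.56 and 4.88 against 0.65 to 4.60 (median 3.003). The lowest ASPM value lies below the 20th percentile of the arrays (LR12 mean 1.776), which limits how well its difference can be measured. Aurora kinase A (AURKA), CCNB2 and the helicase subunits MCM3, MCM4, MCM6 and MCM7 were also lower, with differences of -1.42, -1.42, -1.42, -1.19, -1.28 and -0.85. The mean over the list fell in 6 of 6 LR12 and 4 of 4 vehicle animals, to 4.91 to 5.45 against 5.995, 6.35, 5.68 and 5.85, so the groups did not overlap. With quantile normalization 7 of the 34 were lower. In the leave-one-out fits, TOP2A, RRM1, ASPM, AURKA, MCM3, MCM4, MCM6 and MCM7 lost the calls (adjusted p up to 0.0861, 0.0616, 0.0843, 0.2, 0.116, 0.128, 0.173 and 0.0782).

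Proteasome genes were higher in 9 of 33 and lower in none, with small differences and a median of 0.41. PSMC6, an ATPase of the regulatory cap, had vehicle levels of 9.29, 9.45, 11.17 and 9.57 and LR12 levels from 11.04 to 11.66 (median 11.48), and a difference of 1.54 ± 0.32. PSME3, the nuclear activator, differed by 0.85, with 1 of 4 probe sets of the other sign, and the assembly factor POMP by 0.90, with 1 of 2 probe sets of the other sign. PSMB8, the immunoproteasome subunit, differed by 0.59. Without Y31303, 16 of the 33 were higher, against 7.85% of all genes. POMP and PSMB8 were not called in each leave-one-out fit (adjusted p up to 0.0619 and 0.114).

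Metabolic genes changed in part. Of 34 glycolysis and hypoxia genes 5 were higher and 1 lower: PFKFB2, which sets the rate of glycolysis, had 7.63, 9.29, 10.35 and 7.76 against 10.41 to 11.36 (median 11.03), HK3, the hexokinase of myeloid cells, differed by 1.14, and LDHB by -1.16. Respiratory chain subunits gave 2 higher and 3 lower of 62 (COX7A2 0.84, ATP5PB 0.41, NDUFA12 -0.82, COX5A -0.68 and ATP5MC2 -0.61), and mitochondrial ribosomal proteins 1 higher and 4 lower of 69. Cytosolic ribosomal proteins gave 4 lower of 51, RPL3 (-1.31) the largest, and this count moved with the scaling: 1 was lower with centring and 9 with quantile normalization, where 5.59% of all genes were lower. Scaling also moved glycolysis to 3 lower (quantile) and the respiratory chain to 3 higher and 1 lower (centring), and the block gave 4 and 4 for the respiratory chain. Of 29 heat shock genes none was called (2 higher with centring), nor any of the 15 eosinophil, basophil and mast cell markers. These shares are to be read against the 4.36% higher and 7.56% lower over all genes (4.94% and 9.01% with the block). With 1 animal left out, the calls of PFKFB2, HK3, LDHB, COX7A2, ATP5PB, NDUFA12, COX5A, ATP5MC2 and RPL3 were lost (adjusted p up to 0.0574, 0.154, 0.0867, 0.135, 0.215, 0.0791, 0.0681, 0.131 and 0.0934).

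Lipid mediator, cell death and inflammasome genes had members on both sides. Over all genes 4.36% were higher and 7.56% lower, and 4.94% and 9.01% with the replicate block. ALOX5, the first enzyme of leukotriene synthesis, had vehicle levels of 8.89, 9.44, 10.77 and 9.07 and LR12 levels from 10.85 to 11.72 (median 11.52). The death receptor FAS had 5.83, 5.53, 7.11 and 6.17 against 7.64 to 8.20 (median 7.93) and the caspase CASP10 8.58, 8.38, 11.48 and 8.32 against 11.35 to 12.28 (median 11.67), Y31303 being the highest vehicle animal in all 3, and 1 of 4 probe sets of CASP10 of the other sign. BCL2, a survival factor of lymphocytes, was lower (-1.70 ± 0.40), and BCL2L1 higher (0.97 ± 0.32). The inflammasome sensor NLRC4 and the pore former GSDMD were higher (1.54 ± 0.40 and 0.73 ± 0.19), and P2RX7 and PYHIN1 lower (-1.36 and -1.45), and the block gave 5 higher in place of 3 of that list. Of 22 glucocorticoid-responsive genes 4 were higher and 2 lower, ZBTB16 the largest of them at -1.94 ± 0.43, and of 14 coagulation genes 1 was higher, the protease inhibitor TIMP1 (1.02 ± 0.31). The calls of BCL2L1, NLRC4, P2RX7, PYHIN1 and TIMP1 did not hold in each fit with 1 animal left out (adjusted p up to 0.271, 0.0603, 0.0557, 0.11 and 0.148).

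The 35 genes whose change from 0 h to 4 h differed between the arms, 17 upward and 18 downward, compare each arm with its own start. That fit does not pair the arrays of an animal, and the fit with the animal as replicate block called 1125. Leaving out Y31301, Y31302, Y31303 or Y31304 turned the 35 into 2, 5, 1041 and 7. The count thus fell without Y31301, Y31302 or Y31304 and went up without Y31303. EZH2, the methyltransferase of the Polycomb complex, had vehicle levels of 9.54, 9.58, 11.09 and 9.49 and LR12 levels from 11.91 to 12.63 (median 12.36), a 4 h difference of 2.41 ± 0.33 (adjusted p = 4.51e-06) and a change difference of 2.22. ARAP2, a regulator of small GTPases, had 7.37, 7.30, 8.51 and 7.32 against 9.51 to 9.97 (median 9.70) and a change difference of 2.36. In both, Y31303 lay between the other vehicle animals and LR12 and did not reach the LR12 range.

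FANCM, a DNA repair translocase, and TFEC, a myeloid transcription factor, differed without any vehicle animal standing far from its arm: FANCM had 8.35, 8.50, 8.34 and 8.16 against 9.31 to 10.54 (median 9.82), and TFEC 6.16, 5.59, 6.24 and 5.78 against 7.11 to 8.04 (median 7.62). PLAAT4, an interferon- and retinoid-induced gene, the membrane protein gene SMIM30 and the lysophosphatidic acid receptor LPAR6 had change differences of 1.37, 1.79 and 1.52.

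Downward, FAXDC2, a gene of the fatty acid hydroxylase family, had vehicle levels of 9.80, 9.79, 9.08 and 9.13 and LR12 levels from 6.39 to 8.09 (median 7.24), a difference of -2.30 ± 0.28 (adjusted p = 8.21e-07) that was -0.19 at 0 h. RORA, a nuclear receptor of lymphocytes, had 8.32, 8.45, 6.50 and 8.19 against 5.05 to 6.48 (median 5.35), with a mean of 9.42 ± 0.31 at 0 h with LR12. SSBP3 had 9.60, 8.82, 8.91 and 9.81 against 6.86 to 7.68 (median 7.30), and the groups did not overlap for any of the 3. NECAB3, ZC4H2, MACIR and ABHD4 had change differences of -2.70, -2.59, -2.10 and -1.81, and 1 of 2 probe sets of NECAB3 and of ABHD4 had the other sign.

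The peptide control arm shares the 4 vehicle arrays with one comparison and the 6 LR12 arrays with another, so the values are given side by side. Against vehicle at 4 h, the peptide control had 1 called gene (0.00624%; 1811 with an unadjusted p below 0.05, 4 calls with the block): the kynurenine pathway enzyme gene KYNU, at 11.002, 11.09, 11.14 and 11.13 in the peptide control animals, 9.36, 9.38, 9.77 and 10.33 in vehicle and from 10.32 to 10.96 (median 10.59) with LR12. Without Y31303 that comparison had 1029 calls, and without the peptide control animal Y31305 it had 257, while it had 5 without Y31308 and 0 without Y31306 or Y31307. Directly between LR12 and the peptide control, 217 genes were called (1.35%), 60 higher and 157 lower. Leaving out 1 animal gave 14 (LR12 Y31312) to 426 (LR12 Y31309) calls, with 22 without Y31305, 102 without Y31306, 27 without Y31307, 72 without Y31308, 24 without Y31313 and 95 without Y31314.

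ICAM1 was at 7.65, 9.19, 9.71 and 6.87 in the peptide control animals Y31305 to Y31308, of which 2 lay inside the vehicle range and 2 between it and the lowest LR12 animal, and LR12 was 1.97 higher (adjusted p = 0.0956). CHI3L2 was at 6.05, 11.73, 11.55 and 11.31, so that 3 animals were near LR12 and Y31305 was near vehicle, and MARCO at 1.23, 9.66, 7.68 and 8.97 showed the same split. T cell markers had a median of -0.87 for peptide control minus vehicle and -0.50 for LR12 minus peptide control, where BCL11B was -1.67 apart (adjusted p = 0.0279). BACE2, CA1 and AHSP, lower with LR12 than with vehicle, were also called lower than in the peptide control (-1.87, -1.41 and -1.67), as were ITGA4 (-2.11) and SSBP3 (-1.32), while TFEC and PLAAT4 were called higher (1.32 and 0.90).

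Technical measures also differed among the 10 arrays, across the arms. The level of the 45 bacterial and phage spike-in control probe sets split the 56 arrays into 24 high and 32 low, with 2 of 6 LR12, 2 of 4 vehicle (Y31303 and Y31304) and 4 of 4 peptide control arrays of 4 h in the high set. The difference between 3′ and 5′ ACTB probe sets, a measure of RNA quality, was 1.14 to 1.46 on the 4 high-set arrays and 1.93 to 2.65 on the 6 low-set arrays. Within the low set 912 genes were higher and 1447 lower, and within the high set 6 and 54. With the set as a covariate 991 were higher (6.19%) and 1968 lower (12.3%). The lower genes included 20 of 22 T cell markers, 10 of 69 mitochondrial ribosomal proteins and 6 of 17 genes of MHC class II presentation. The share of mitochondrial ribosomal proteins was near that over all genes. In the low set alone, 3 of 18 genes of endotoxin recognition were higher and 0 of 51 ribosomal proteins lower. Over all genes 5.69% were higher and 9.03% lower in that set. The part of the set in the differences was not tested beyond these fits, and that of RNA quality was not tested.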

How the data were processed

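Blood RNA of 14 macaques at 0, 2, 4 and 8 h was read on 56 human genome arrays, 1 per animal and hour. The deposited values are probe set intensity, computed by the authors with MAS5 per the submitters' processing notes; the version is not given in the sources used here. The trimmed mean is the same on each array, so only relative levels can differ, and human probes can miss macaque transcripts. Intensities were taken to log2. Probe sets above the array median on at least 4 of 56 arrays were kept (38826 of 54675), and 1 probe set with a single symbol was used per gene, the one with the highest mean: 16020 genes, 13561 of them in the macaque gene table. Of all probe sets 41097 have 1 symbol, 1801 several and 11777 none.

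One limma model (3.58.1, R 4.3.3) over 12 groups of arm and hour was fitted to all 56 arrays, with trended, robust eBayes and Benjamini-Hochberg adjustment within each comparison; the script was tested on simulated data. Alternatives covered scaling, the animal as replicate block, spike-in set, filters, probe set choice, arrays in the fit and each animal left out. The labels give the animal of each array: deviations from the group means correlated at 0.180 on average between the arrays of 1 animal (0.103 to 0.328 over the 14 animals) and at -0.0294 between animals, and 45 of 56 arrays matched best with their own animal. List counts and medians without Y31303 were added after seeing the data. Genes were named by rule: the 12 largest non-overlapping rises and falls with both means at or above the arrays' 20th percentile and a symbol, no placeholder, in the macaque table; by the same filters the 8 largest called changes in each direction; up to 3 called members per list and direction; the 5 smallest p where under 5 genes were called; and a set of TREM-1, endotoxin and marker genes given whatever their values. Other list members and the genes under other observations were chosen after their values were seen. The members and lists were chosen with earlier results of these data known. The number of arrays limits the precision.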

Additional observations from a re-analysis of the deposited data

Results flagged for a closer look

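Single animals lay far from the rest of their group in 46 of 380 group tests over named genes, lists and array measures. The cutoff is one that chance passes about 1 time in 20 in a single test. The tests share the same 10 animals and most genes were named for their difference here, so the count of 46 cannot be compared with that rate. Of the 46, 28 were vehicle values, 26 of them of Y31303, and 18 were LR12 values. Y31303 lay high, towards LR12, for ARAP2 (8.51), CARD16 (12.25), CASP10 (11.48), CHI3L2 (11.29), CXCL8 (6.49), EZH2 (11.09), IL1RN (12.99), IRAK2 (8.72), MARCO (8.33), MROH6 (3.64), OSM (7.67), PDK1 (9.86), PSMC6 (11.17), S100A12 (11.21), SMIM30 (8.90) and SOCS1 (7.57). It lay low for CTSW (7.11), HLA-DOB (5.64), IL2RB (5.74), MRPS30 (8.14), RORA (6.50) and RRM1 (6.61). Its list means lay low for MHC class II (8.64) and mitochondrial ribosomal proteins (7.37) and high for glycolysis (9.95) and proteasome (10.57). The other vehicle values were IL6 in Y31301 (4.62) and the mean of inflammatory cytokines in Y31302 (5.26).

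Among LR12 animals, Y31309 lay high for BCL2 (8.49), LDHB (9.85), MRPS30 (9.04), RORA (6.48) and RPL36 (11.88). It also lay high for the means of MHC class II (9.41) and of NF-kB feedback and early response genes (8.66). It lay low for GJB2 (3.51) and the mean of endotoxin recognition (9.005). Y31312 lay low for CHN1 (-1.14) and MS4A7 (5.205) and high for PECAM1 (8.85). Y31311 lay low for MARCO (7.56) and TREML1 (7.99), Y31310 high for LPAR6 (11.59), Y31313 low for MROH6 (3.84), and Y31314 low for SOCS1 (7.54) and high for the 20th percentile of its array (2.63).

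The change from 0 h to 4 h differed between the arms for 18 named genes, in the fit that does not pair the arrays of an animal. The difference, LR12 minus vehicle, was 2.36 for ARAP2, 4.18 for CXCL10, 2.22 for EZH2, 1.75 for FANCM, 1.52 for LPAR6, 1.37 for PLAAT4, 2.05 for PSMC6, 1.79 for SMIM30 and 2.00 for TFEC. It was -1.81 for ABHD4, -3.10 for CDK5, -5.35 for DLGAP1-AS2, -2.11 for FAXDC2, -2.10 for MACIR, -2.70 for NECAB3, -2.95 for RORA, -1.84 for SSBP3 and -2.59 for ZC4H2.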

How the results depend on the processing

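The counts of 699 higher and 1211 lower genes stayed within 1.5 times under centring (854 and 852), quantile normalization (711 and 895) and the animal as replicate block (792 and 1444). With the block, the calls at 0 h were 5, those for the change 1125 and those of peptide control against vehicle 4, and LR12 against peptide control had 297. Quantile normalization gave 142 for LR12 against peptide control. With the spike-in set as a covariate there were 1968 lower genes, 66 changes and 3 calls for peptide control against vehicle. Fitting only the 10 arrays gave 416 higher and 469 lower, and only the 14 arrays of 4 h 450 and 626. Both fits estimate the spread from fewer arrays and groups, and why the counts were lower was not tested. The high spike-in set alone, with 2 arrays per arm, gave 6 and 54, and the low set 912 and 1447. Leaving out 1 animal gave 286 to 1258 higher and 402 to 2460 lower genes, 0 to 5 calls at 0 h, 2 to 1041 changes, 0 to 1029 calls for peptide control against vehicle and 14 to 426 for LR12 against peptide control; it moved the arm difference of the array median between -0.4144 and 1.056, of the 20th percentile between 0.001343 and 0.2452, and of the spike-in level between -0.7892 and -0.1116.

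Reversed differences were those of IL6 with centring (0.066), DLX6 (-0.0048) and GJB2, a gap junction gene not called at 4 h (-0.21), in the low set, TREML1 (-0.32) and TYROBP (-0.032) in the high set, and RPL36 (0.33) over the mean of probe sets. Without _x_ and _s_ probe sets SOX6 (1.23), NFATC1 (-0.069), PTGS1 (0.70), ATP5MC2 (0.53), POMP (-0.197) and DCUN1D1 (0.17) reversed. IL6 also reversed without Y31301 (0.66), Y31310 (0.39) and Y31312 (0.16), TREML1 without Y31302 (-0.24), Y31304 (-0.11) and Y31310 (-0.0018), GJB2 without Y31304 (-0.25) and Y31314 (-0.096), and TREM1 without Y31303 (-0.041). List medians relative to all genes reversed for inflammatory cytokines (-0.0011) and coagulation (-0.031) under quantile normalization, for ribosomal proteins without Y31303 (0.085) and in the low set (0.083), and for inflammatory cytokines (-0.031), chemokines (-0.18) and the respiratory chain (-0.042) in the high set. Without 1 animal TREML1 ran up to 0.42 and GJB2 up to 0.61. The cause was not tested. Of 153 named genes, 138 kept direction and call with centring, 137 with quantile normalization, 151 with the block and 23 in the high set. Where both group means are near the 20th percentile, signal over background limits the difference.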

Other observations

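Some genes with the smallest p at 4 h lie outside the naming rule, and those given here were picked after their values were seen. EPB41, the membrane skeleton protein 4.1, had vehicle levels of 12.002, 12.05, 12.04 and 12.09 and LR12 levels from 10.64 to 11.14 (median 10.75), a difference of -1.22 ± 0.12 (adjusted p = 7.20e-10). All 4 vehicle animals, Y31303 included, lay within 0.1 log2 units of each other, and the difference was -0.08 at 0 h. The exportin gene XPO7 differed by -1.45 ± 0.19, the glutathione peroxidase GPX4 by -1.74 ± 0.26, and PPOX, of heme synthesis, by -1.62 ± 0.29, with 0.11, -0.43 and -0.06 at 0 h, and 1 of 3 probe sets of XPO7 had the other sign. SLC25A39, which carries glutathione into mitochondria, and GLRX5 differed by -2.46 and -1.41, of which -1.28 and -0.52 stood at 0 h. For the first 4 the change from 0 h was called in the blocked fit (adjusted p from 3.58e-05 to 0.0125).

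Higher with LR12 were the aminopeptidase LAP3 (1.38 ± 0.19), the fatty acid ligase ACSL5 (1.76 ± 0.31), LPCAT2, which makes platelet activating factor (1.77 ± 0.31), and the phosphatase PTPN2, which restrains JAK and STAT signals (1.37 ± 0.25, 1 of 6 probe sets of the other sign). EED, a core partner of EZH2 in the Polycomb complex, had vehicle levels of 10.09, 9.68, 11.50 and 10.05 and LR12 levels from 11.56 to 12.14 (median 11.87). The third core member, SUZ12, was not called (0.50 ± 0.35, adjusted p = 0.364).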
